A study of Mus musculus with 3 samples.

Results

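Hox genes were read in every cell class of mouse back skin at 3 points of hair follicle development. The members were all genes of the deposited table whose symbol is Hox followed by a letter from a to d and a paralogue number, which gave 35 of 19165 genes. GENCODE vM21 annotates 39 such genes on the GRCm38 assembly, and Hoxa13, Hoxc12, Hoxd12 and Hoxd13 were not analysed here. The members lie in 4 clusters, with 10 members in HoxA (chromosome 6, 52155590 to 52260880, minus strand), 10 in HoxB (chromosome 11, 96194316 to 96368256, plus strand), 8 in HoxC (chromosome 15, 102921103 to 103036852, plus strand) and 7 in HoxD (chromosome 2, 74668310 to 74765142, plus strand). The samples were the dorsal skin of untreated male C57BL/6 mice, with no transgene or mutation, taken from embryos of E13.5 and E16.5 (days of embryonic development) and on the day of birth (P0), stages over which hair follicles are induced, grow down and differentiate. Each stage was 1 library of droplet-based single-cell RNA sequencing pooled from at least 3 mice (the methods also give at least 6 male fetuses for the tissue digested), so that stage, library and digestion enzyme (trypsin for both embryonic stages, collagenase IV for P0) cannot be told apart and no difference has a replicate check. The labels do not divide the back skin along the head-to-tail axis, so a position on that axis is not known for any cell.

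Hox genes encode homeodomain transcription factors that give cells of the trunk and limbs their position along the body axis. Paralogue numbers follow the order of the genes along a cluster, and low-numbered genes are switched on earlier and further towards the head than high-numbered genes, a rule known as collinearity. HOX proteins bind DNA together with cofactors of the TALE family (PBX, MEIS and PKNOX proteins), and fibroblasts of adult skin keep a Hox pattern that records the site they came from. Hoxc13 is a known exception to positional use, since it controls keratin genes of the hair shaft and nail.

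The libraries held 5962, 5208 and 5065 cells with 53334740, 66239195 and 46599806 UMIs. Here and in what follows, 3 values in a row belong to E13.5, E16.5 and P0 in that order. A UMI (unique molecular identifier) counts 1 captured transcript by its end, so levels are given as UMIs of a gene per 1000000 UMIs of a cell class (CPM) and can be set side by side between genes without scaling for length. Cells were clustered without the Hox genes and named from markers that hold no Hox gene, which gave 2068, 2267 and 2346 dermal-like cells and 209, 876 and 1282 epithelial-like cells. Clusters in which the markers of another class reached 33.3% of the level in that class were set aside as mixed, which took 1848, 109 and 122 cells out of the comparisons. The libraries shared 32 to 44 cell barcodes in pairs. Intervals are 95% and cover counting error only.

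For the members that set the epithelial and the endothelial pattern apart below, the reference promoters are shown from 250 bases before to 50 bases after the transcription start (RefSeq, GRCm38.p6). They were chosen after their values were seen. Capitals mark CG dinucleotides, the sites of DNA methylation, which is one way in which Hox promoters can be kept silent.
Hoxa5, chr6:52204538-52204837, minus strand: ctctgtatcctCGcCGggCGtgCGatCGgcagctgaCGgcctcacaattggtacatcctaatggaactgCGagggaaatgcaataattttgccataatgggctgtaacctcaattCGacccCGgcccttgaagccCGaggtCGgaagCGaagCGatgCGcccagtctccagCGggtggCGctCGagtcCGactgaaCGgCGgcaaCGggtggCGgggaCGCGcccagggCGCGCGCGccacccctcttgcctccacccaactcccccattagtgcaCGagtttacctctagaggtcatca
Hoxa7, chr6:52218524-52218823, minus strand: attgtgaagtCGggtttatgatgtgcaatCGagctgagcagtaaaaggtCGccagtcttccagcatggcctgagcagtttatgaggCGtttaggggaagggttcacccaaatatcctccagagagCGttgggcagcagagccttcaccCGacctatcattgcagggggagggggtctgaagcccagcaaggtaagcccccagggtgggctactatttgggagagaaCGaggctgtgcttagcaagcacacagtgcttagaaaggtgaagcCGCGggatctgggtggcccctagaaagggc
Hoxd9, chr2:74697513-74697812, plus strand: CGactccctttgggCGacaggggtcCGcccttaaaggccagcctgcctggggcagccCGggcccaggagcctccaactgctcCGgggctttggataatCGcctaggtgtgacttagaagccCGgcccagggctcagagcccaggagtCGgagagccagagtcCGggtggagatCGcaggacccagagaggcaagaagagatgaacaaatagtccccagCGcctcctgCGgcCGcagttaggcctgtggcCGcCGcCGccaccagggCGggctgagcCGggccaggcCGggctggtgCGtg
Hoxd10, chr2:74691641-74691940, plus strand: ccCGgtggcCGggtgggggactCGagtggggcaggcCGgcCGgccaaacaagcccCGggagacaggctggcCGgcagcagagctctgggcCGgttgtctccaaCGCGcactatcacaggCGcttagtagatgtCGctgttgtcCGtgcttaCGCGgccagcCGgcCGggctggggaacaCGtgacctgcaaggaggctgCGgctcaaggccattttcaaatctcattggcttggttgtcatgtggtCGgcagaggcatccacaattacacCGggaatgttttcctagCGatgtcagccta
These windows held 29, 9, 20 and 22 CG dinucleotides for Hoxa5, Hoxa7, Hoxd9 and Hoxd10, against a median of 7 over 32851 promoters of the same length. Of these promoters 26.5% held 20 or more, and 45.8% held 9 or more, the count of Hoxa7. The G and C content was 61.7%, 55.7%, 68.3% and 62.7% in the same order. Of all members, 19 had a promoter in the table, with 21 windows. A motif bound by HOX with PBX (TGATTNAT, either strand) was in 2 of these 21 windows, those of Hoxa2 and Hoxd11, and in 3.22% of all promoters. A motif bound by MEIS and PKNOX (TGACAG, either strand) was in 2 of the 21, those of Hoxa2 and Hoxa3, and in 19.2% of all promoters. None of the 4 printed windows held either motif.

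Hox transcripts were present in every named class, at levels that differed widely between classes of the same library. In dermal-like cells all members together gave 918 CPM (905 to 932), 588 (579 to 598) and 471 (460 to 482). Epithelial-like cells had similar sums, with 875 (837 to 914), 599 (586 to 613) and 421 (412 to 431). At P0 their interval lay below the dermal one. The sums of the skin's main compartments were thus close, although the genes behind them were not. Each sum also pools unlike sub-clusters of the class. Epithelial-like sub-clusters ranged from 503 to 1533 CPM, 350 to 684 and 209 to 513. Dermal-like sub-clusters ranged from 701 to 1123 CPM, 210 to 828 and 204 to 1072. Endothelial-like cells gave 595, 663 and 715 CPM.

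Immune-like cells, which come from blood-forming tissue and were taken as the class in which free RNA should weigh most, had 286 CPM (262 to 312), 60.6 (51.0 to 71.5) and 128 (103 to 159). Thinned to 3500 UMIs per cell, the share of cells with any Hox UMI was 93.7%, 83.6% and 76.9% of dermal-like cells and 49.4%, 17.3% and 19.7% of immune-like cells. Without thinning the shares were 99.0%, 98.6% and 90.5% against 73.3%, 34.4% and 31.8%, with median depths of 8386.5, 10709 and 6023 UMIs in dermal-like and 8409.5, 10224 and 8220.5 in immune-like cells. A dermal-like cell thinned in this way showed on average 2.53, 1.78 and 1.48 different Hox genes. At E13.5 the summed level of the dermal markers in immune-like cells was 14.5% of that in dermal-like cells, while their Hox level was 31.1% of it, and the part of free RNA in these values was not tested.

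**Figure D1:**
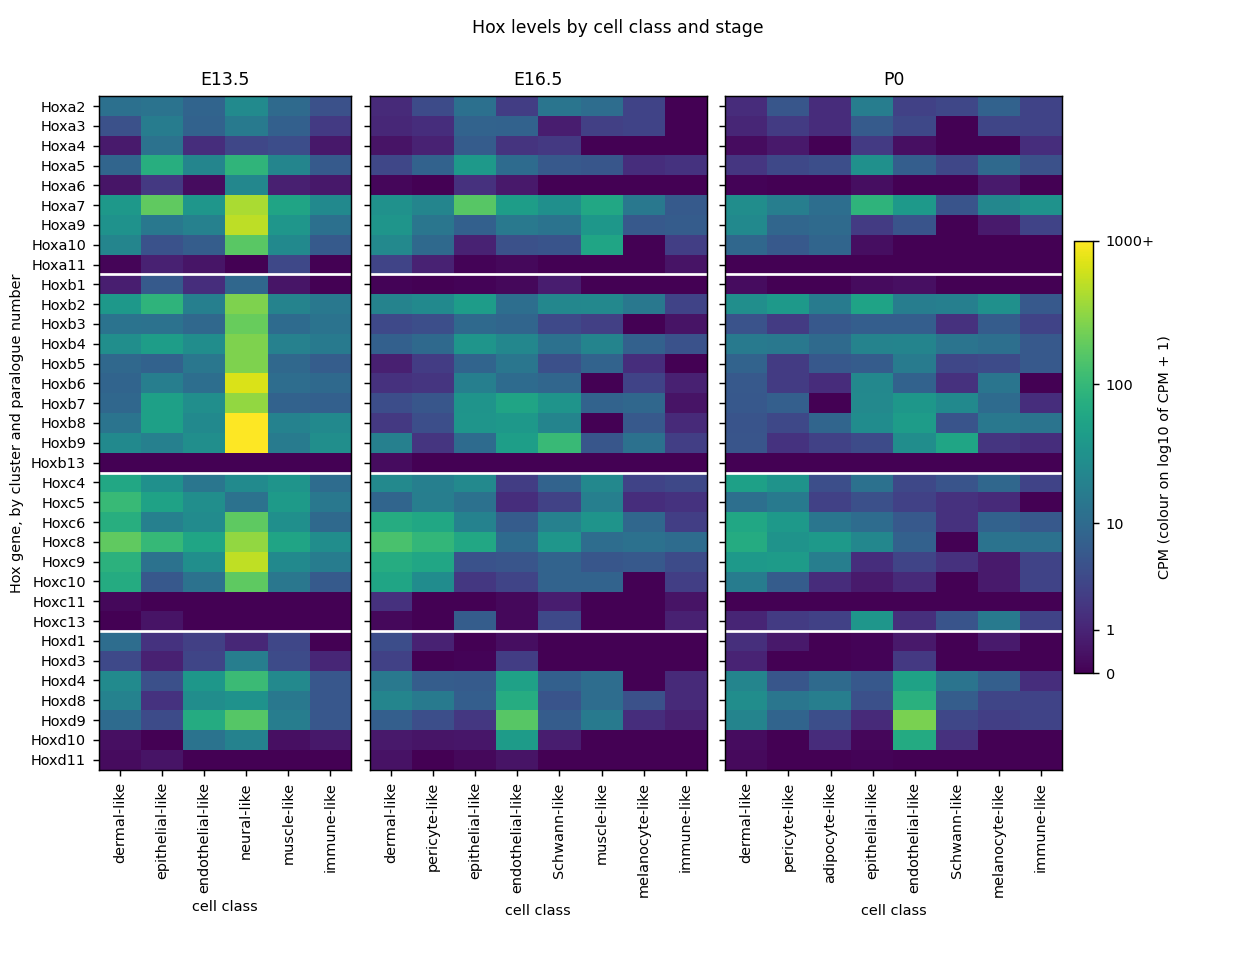
Level of 34 Hox genes (rows, ordered by cluster and paralogue number, white lines between clusters) in each named cell class (columns) of the 3 libraries, in CPM on a logarithmic colour scale that saturates at 1000. At E16.5 and P0 Hoxc6, Hoxc8 and Hoxc10 are brightest in dermal-like cells, Hoxa5 and Hoxa7 in epithelial-like cells and Hoxd8 to Hoxd10 in endothelial-like cells, whereas at E13.5 the neural-like cells are brightest for all of these and for Hoxb2 to Hoxb9.

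The cell classes drew on different clusters. In dermal-like cells HoxC genes made up 63.0%, 63.5% and 52.7% of all Hox UMIs, and pericyte-like cells, the mural cells of small vessels, had 65.8% at E16.5 and 54.2% at P0. In epithelial-like cells HoxA gave 39.2%, 42.0% and 36.0% and HoxB 33.9%, 33.1% and 40.0%, while HoxD gave only 1.49%, 2.67% and 2.79%. Endothelial-like cells stood at the other end, with HoxD at 25.9%, 50.7% and 62.7%. Neural-like and Schwann-like cells were led by HoxB, which held 61.6% of the Hox UMIs of neural-like cells at E13.5, and 54.6% and 70.8% of those of Schwann-like cells at E16.5 and P0.

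**Figure D2:**
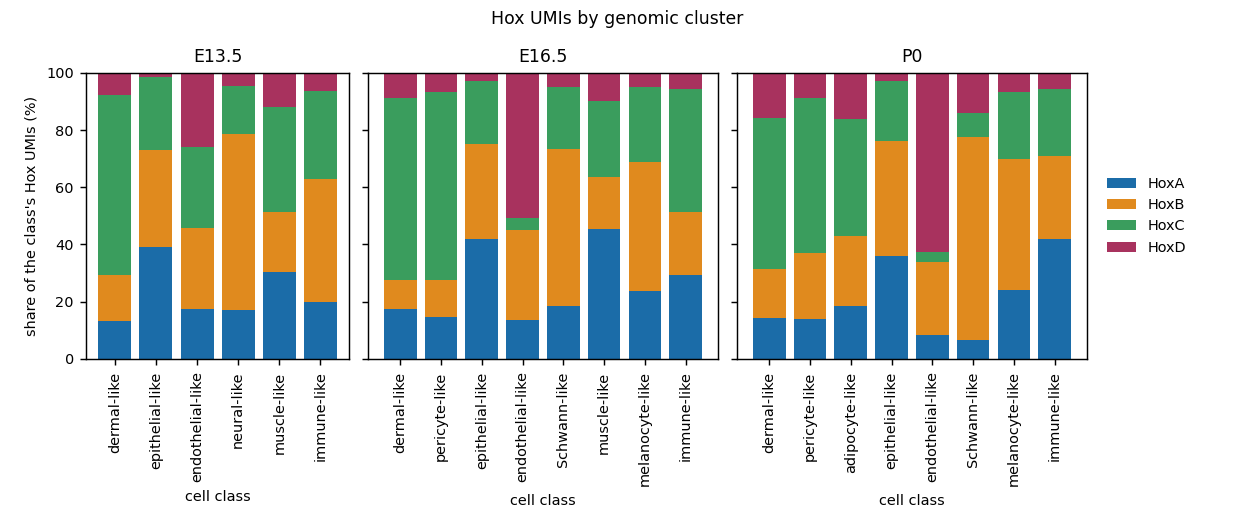
Share of all Hox UMIs (percent) that came from the HoxA, HoxB, HoxC and HoxD clusters in each named cell class of each library. HoxC takes 52.7% to 63.5% of the bar in dermal-like cells, and HoxD takes 62.7% in endothelial-like cells at P0.

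Dermis was then compared with epithelium within each library, which asks whether the germ layers of one piece of skin carry the same code. They did not. Hoxc9 and Hoxc10, Hoxa9 and Hoxa10, and HoxD genes up to Hoxd9 were higher in dermal-like cells, and Hoxa3, Hoxa5, Hoxa7 and Hoxb6 to Hoxb8 were higher in epithelial-like cells. A gene was called at a CPM ratio of at least 2 or at most 0.5 where both groups together held at least 50 UMIs, with no test behind the call. At E13.5, 11 of 26 members were called higher in dermal-like cells and 8 lower, against 19.0% and 9.73% of all genes compared. At E16.5 it was 12 and 14 of 29 members, against 19.7% and 11.5%, and at P0 it was 11 and 9 of 25, against 18.3% and 15%. A member that is near 0 in one group passes the UMI minimum only through the other, as Hoxa11, Hoxc13 and Hoxd1 did at E16.5.

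Across all 3 libraries 24 members could be compared. Of these, 8 were higher in dermal-like cells each time (Hoxa9, Hoxa10, Hoxc6, Hoxc9, Hoxc10, Hoxd4, Hoxd8 and Hoxd9), where 10.2% of all genes compared in each library were. Another 7 were lower each time (among them Hoxa3, Hoxa5, Hoxa7, Hoxb6, Hoxb7 and Hoxb8), where 4.55% of all genes were. The libraries are separate pools of mice at different stages, and this is the nearest to a repeat that the data hold. When the mixed clusters of E13.5 were kept in, 6 members instead of 11 were higher in dermal-like cells at that stage.

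Hoxc8 had the highest level of any member in dermal-like cells, with 185, 138 and 68.6 CPM, against 100, 62.2 and 23.5 in epithelial-like cells. Thinned to equal depth, a Hoxc8 UMI was found in 38.6%, 35.1% and 20% of dermal-like cells and in 9.88%, 2.88% and 1.52% of immune-like cells. Its dermal-to-epithelial ratio was 1.85 (1.62 to 2.12), 2.22 (2.06 to 2.40) and 2.92 (2.60 to 3.29). The genes next to it in the cluster differed more. Hoxc9 stood at 83.0, 71.6 and 40.3 CPM in dermal-like cells and at 12.6, 4.72 and 1.5 in epithelial-like cells, ratios of 6.61 (4.58 to 9.90), 15.2 (11.8 to 19.8) and 26.8 (18.1 to 41.3). Hoxc10 stood at 69.5, 56.5 and 17.3 CPM against 5.63, 2.06 and 0.636. Its ratios were 12.3 (7.19 to 23.2), 27.3 (18.8 to 41.3) and 27.2 (14.9 to 55.1). Hoxc10 thus lay above Hoxc8 in every library, while its interval overlapped that of Hoxc9 in every library.

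Within HoxA the genes changed sides along the cluster. Hoxa5 was at 8.56, 3.34 and 1.95 CPM in dermal-like cells and at 74.1, 40.3 and 30.7 in epithelial-like cells. Hoxa7, the member with the highest epithelial level at each stage, was at 39.0, 31.7 and 28.2 CPM against 182, 164 and 87.4. Beyond Hoxa7, Hoxa9 was higher in dermal-like cells, with 33.1, 35.8 and 25.3 CPM against 14.7, 7.30 and 2.31. Hoxa10 followed with 22.1, 25 and 9.09 against 4.77, 0.959 and 0.289, ratios of 4.64 (2.57 to 9.37), 26.1 (15.2 to 49.3) and 31.4 (13.2 to 98.3). Between Hoxa7 and Hoxa9 the ratio thus went from 0.214, 0.193 and 0.322 to 2.25, 4.90 and 10.9.

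In HoxB the ratio passed 1 between Hoxb8 and Hoxb9, but lower-numbered genes were not all below 1. At E13.5 Hoxb5 stood at 9.35 CPM in dermal-like and 7.80 in epithelial-like cells, and Hoxb3 at 12.8 and 12.6. Hoxb6, Hoxb7 and Hoxb8 were higher in epithelial-like cells at every stage, and Hoxb9 lay at ratios of 1.33, 1.92 and 1.36, all short of the 2-fold limit for a call. Hoxb8 had 13.4, 2.17 and 4.94 CPM in dermal-like cells and 49.8, 35.8 and 27.7 in epithelial-like cells. Hoxb7 had 9.14, 4.12 and 5.78 against 49.4, 34.5 and 24.9. In HoxD every member called was higher in dermal-like cells. Hoxd1, which is known for its part in sensory circuits, gave 208 dermal and 4 epithelial UMIs in the E13.5 library. At E16.5 it gave 105 and 0 UMIs, which puts it at least 18.4-fold higher in dermal-like cells when the empty side is set to a floor of 3 UMIs.

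**Figure D3:**
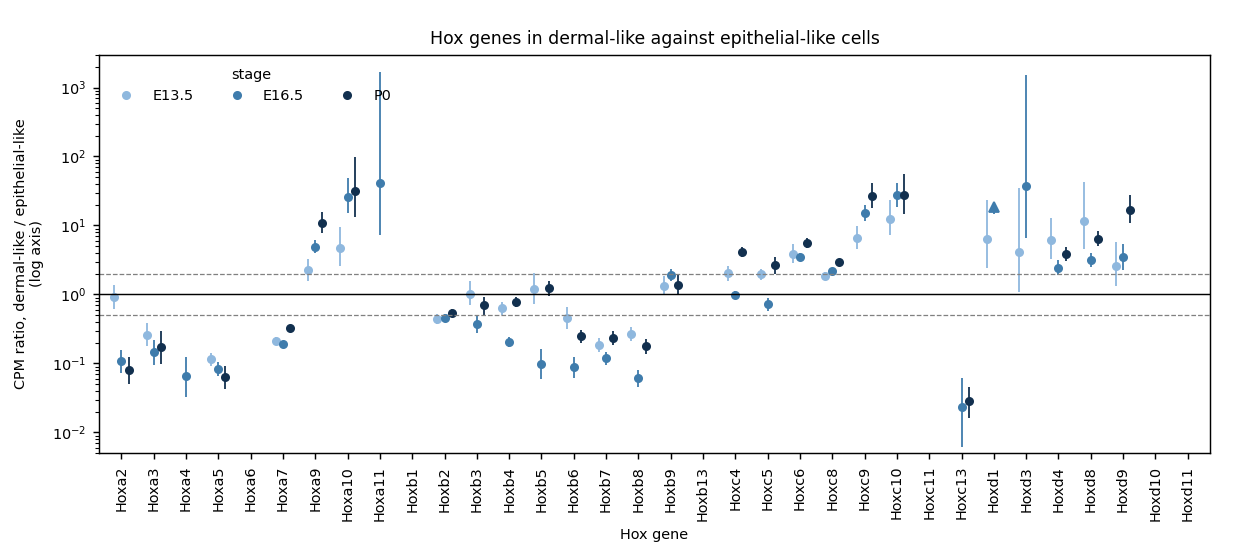
Ratio of the CPM in dermal-like cells to that in epithelial-like cells (logarithmic axis) for the members with at least 50 UMIs in both classes together, ordered by cluster and paralogue number, with 1 colour per library, bars for the 95% counting interval, dashed lines at 2 and 0.5, and a triangle for a lower bound. Points above 1 are higher in dermal-like cells, and Hoxa9, Hoxa10, Hoxc9 and Hoxc10 lie above it and Hoxa5, Hoxa7 and Hoxb8 below it in all 3 libraries.

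The members were also summed by paralogue group. Group 9 summed to 152, 134 and 92.4 CPM in dermal-like cells but to 50.3, 24.2 and 8.91 in epithelial-like cells. Group 13, all of it Hoxc13, made up 0.0496%, 1.12% and 8.72% of the epithelial Hox UMIs, or 36.7 CPM at P0. Group 7 was reversed, with 5.24%, 6.09% and 7.21% of the Hox UMIs in dermal-like and 26.5%, 33.2% and 26.7% in epithelial-like cells. Weighted by UMIs, the mean paralogue number was 6.68, 7.49 and 6.59 in dermal-like cells and 5.74, 6.00 and 6.10 in epithelial-like cells.

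Endothelial-like cells, which line the vessels, were set apart by HoxD. The make-up of this class differed between the libraries. Clusters led by Ccl21a and Mmrn1, genes of lymphatic vessels, held 225 of 374, 44 of 351 and 12 of 267 of its cells. The part of this shift in the differences between stages was not tested. Against dermal-like cells of the same library, 4 of 26 members were higher and 9 lower at E13.5 (7.50% and 11.6% of all genes compared), 13 and 10 of 27 at E16.5 (12% and 16.3%), and 9 and 8 of 22 at P0 (13.4% and 16.2%). Hoxd9 was at 68.4, 166 and 246 CPM in endothelial-like cells and at 10.1, 7.11 and 21.6 in dermal-like cells, ratios of 6.78 (5.62 to 8.20), 23.3 (20 to 27.5) and 11.4 (9.99 to 13). With cells thinned to equal depth, 18.7%, 41.0% and 57.3% of endothelial-like cells had a Hoxd9 UMI, against 2.33%, 0% and 1.52% of immune-like cells. Its neighbour Hoxd10 was at 13, 43.8 and 66.9 CPM against 0.313, 0.621 and 0.260. Its ratios of 41.4 (17.8 to 118), 70.5 (42.7 to 125) and 258 (99.2 to 954) rest on 4 dermal UMIs at P0, so the last of them is imprecise.

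In the same cells HoxC was low at the later stages. Hoxc8 stood at 10.2 CPM at E16.5 and 7.50 at P0 in endothelial-like cells, a ratio to dermal-like cells of 0.0739 (0.0572 to 0.0939) and 0.109 (0.0697 to 0.164). The immune-like cells of the same libraries held 10.4 and 12 CPM, and the part of free RNA in the endothelial values was not tested. At E13.5 it stood at 56.4 CPM, 0.305 (0.265 to 0.349) of the dermal level, while the dermal markers in these cells reached 30.2% of their dermal level, against 7.43% at E16.5 and 4.91% at P0. The part of dermal RNA in the E13.5 value was not tested. The level of HoxD itself in these cells was 154, 336 and 448 CPM.

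Neural-like cells of E13.5 had the highest Hox level of all, 7395 CPM (7217 to 7577) in 158 cells. They formed 2 clusters, one led by Igfbpl1, Tubb3 and Elavl3 and one by Sst, Neurod6, Lhx1 and Lhx5, genes of nerve cells, while a further cluster of 244 cells with neural markers was set aside as mixed. A Hox gene, Hoxb6, was among the 10 leading genes of the former, although no Hox gene entered the clustering. Hoxb8 reached 1331 CPM in them, Hoxb9 1246 and Hoxb6 667, against 13.4, 25.4 and 8.20 in dermal-like cells. Against dermal-like cells 20 of 25 members were higher and 3 lower, where 19.0% and 22.3% of all genes compared were. The 3 lower members were Hoxc4, Hoxc5 and Hoxd1, and Hoxc5 had 12.5 CPM against 103. These cells had the highest level of 19 of the 28 members with at least 50 UMIs in that library, counting only those whose interval over the next class left out 1. How often they led genes other than the members was not computed, so this count has no background share. No class with neural markers was found at E16.5 or P0, and whether the E13.5 tissue held more than skin is not stated in the labels. Schwann-like cells, the glia of skin nerves, had Hoxb9 as their leading member at 107 CPM at E16.5 and 57.0 at P0, against 19.4 and 5.19 in dermal-like cells.

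Hoxd4, a gene of the middle of the HoxD cluster, is given for every class. Neural-like cells of the first library led it with 111 CPM, and endothelial-like cells, with 37.9, 51.8 and 52.8, led the other 2 libraries. Dermal-like cells held 26.4, 15.3 and 21.9 CPM, and epithelial-like cells 4.33, 6.27 and 5.73. Muscle-like cells of both embryonic libraries stood at 24.7 and 10.8. In the later 2 libraries pericyte-like cells held 6.71 and 5.28 CPM (14 and 9 UMIs), Schwann-like cells 7.25 and 13.4 (10 and 8 UMIs) and melanocyte-like cells 0 and 7.07 (0 and 11 UMIs). Adipocyte-like cells of P0 held 9.86 CPM from 7 UMIs. Immune-like cells held 5.60, 1.30 and 1.49 CPM from 10, 3 and 1 UMIs, so that these smaller classes rest on few UMIs.

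The dermal code also differed between the stage libraries, most of all in its low and middle paralogues. At E16.5 against E13.5, 12 of 26 members were lower (8.78% of all genes compared were) and 1 was higher (6.77%). The 12 were Hoxa2, Hoxa3, Hoxa5, Hoxb3 to Hoxb8, Hoxc4, Hoxc5 and Hoxd1. At E13.5 Hoxb3 to Hoxb8 stood at 12.8, 29.0, 9.35, 8.20, 9.14 and 13.4 CPM in dermal-like cells. Immune-like cells of that library held 12.9, 15.7, 6.73, 9.53, 7.29 and 25.8 CPM of the same genes. The part of free RNA in the dermal values of these HoxB genes was not tested. Paralogues 9 and 10 moved little between the same libraries: Hoxa9, Hoxa10, Hoxb9, Hoxc9 and Hoxc10 lay at ratios between 0.765 and 1.13, and Hoxd9 at 0.705. The median ratio was 0.557 over the members and 0.894 over all genes compared. Shifts between these libraries were not limited to dermal-like cells. Paralogue group 5 went from 135 to 60.5 CPM in epithelial-like, 66.1 to 25.7 in endothelial-like and 74.0 to 32.3 in muscle-like cells. It went from 121 to 12.8 in dermal-like cells. Group 7 went from 231 to 199, 66.1 to 101, 63.9 to 70.0 and 48.1 to 35.8 CPM in the same order of classes.

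Hoxc5 had the lowest ratio of the members called lower. Its dermal level was 103 CPM in the first library, second only to Hoxc8, and then 8.62 and 11.6. The ratio of E16.5 to E13.5 was 0.0837 (0.0725 to 0.0962). Its neighbour Hoxc4 fell from 62.2 to 24.7 CPM and stood at 50.2 at P0, while Hoxc6 gave 76.0, 72.0 and 59.5. The genes on either side of Hoxc5 thus kept a level of 24.7 CPM or more at each stage.

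At P0 against E16.5 the order turned. Of 25 members 6 were higher (Hoxb4, Hoxb5, Hoxb6, Hoxb8, Hoxc4 and Hoxd9, where 6.52% of all genes were) and 7 lower (Hoxa10, Hoxa11, Hoxb9, Hoxc8, Hoxc10, Hoxd1 and Hoxd3, where 14.1% were). Hoxc10 went from 56.5 to 17.3 CPM, a ratio of 0.306 (0.267 to 0.349). Hoxb9 went from 19.4 to 5.19 and Hoxa10 from 25 to 9.09. Hoxb5 went the other way, from 0.815 to 7.99 CPM, a ratio of 9.79 (6.13 to 16.4). The share of dermal-like cells with a UMI of paralogues 10 to 13 was 18%, 21.3% and 7.76% in the thinned counts.

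**Figure D4:**
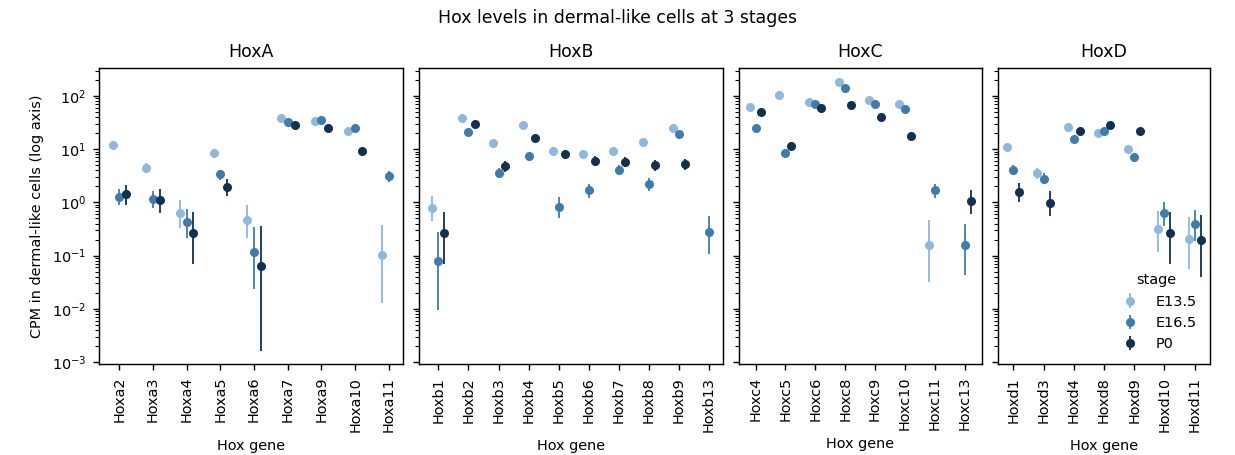
Level of the Hox genes in dermal-like cells (CPM, logarithmic axis) at E13.5, E16.5 and P0, ordered by cluster and paralogue number, with bars for the 95% counting interval and no point where no UMI was found. Hoxc5 drops from 103 to 8.62 CPM between the first 2 libraries, and Hoxc10 from 56.5 to 17.3 between the last 2.

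Some members were rare. Hoxa11 gave 2, 79 and 0 UMIs in dermal-like cells, and Hoxc11 gave 3, 69 and 0 UMIs in whole libraries. Hoxb13 gave 0, 10 and 0 UMIs and Hoxd11 5, 17 and 4. These members had their highest counts in the E16.5 library, which was also the deepest. Which stretch of back skin was cut at each stage is not given, so that stage and site cannot be told apart for these genes. Hoxa4, Hoxa6 and Hoxb1, at the other end, gave 7 to 175 UMIs per library apart from 6 for Hoxb1 at E16.5, and Hoxa4 was higher in epithelial-like than in dermal-like cells at E16.5 (6.42 against 0.427 CPM). The 3' ends of Hoxd3 and Hoxd11 overlap exons of Gm28230 and Gm28309 on the same strand, over 73.0% and 100% of the last 300 bases, and UMIs of these pairs may not have been told apart. The other 33 members had no such overlap.

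Within the dermal-like class the code varied between groups of cells that were clustered without it. Among the sub-clusters of E13.5 with over 24 cells, Hoxc9 ranged from 16.8 to 123 CPM and Hoxc10 from 6.49 to 121. The lowest values were in 252 cells led by Osr2, Klf4 and Cemip, whose mean paralogue number was 5.44. The highest mean, 7.38, was in 146 cells led by Aspn, Epha3 and Nppc. Hoxa5 was at 32.4 CPM in 387 cells led by Col2a1, a collagen of cartilage, which had passed as dermal by their markers. It was at 34.0 CPM in 24 cells led by Scx, and at 11 or less in the other sub-clusters of over 24 cells. At E16.5 the spread of the mean paralogue number was narrower, from 7.21 to 7.75 in sub-clusters of over 41 cells. The smaller sub-clusters, of 41 and 38 cells, had lower means of 6.99 and 6.88.

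Dermal-like cells with a thinned UMI of paralogues 10 to 13 were set against those with UMIs of paralogues 4 to 9 alone, to see what else changed with the code in single cells. The first group is called caudal for its paralogues, not for a known position. The groups had 372 and 1498, 482 and 1374, and 182 and 1541 cells. At E13.5 a Hoxc10 UMI was found in 24.5% of dermal-like cells before thinning and in 14.7% after it. The other group can thus hold cells that also carry these transcripts, which lowers any difference. Few calls here therefore cannot show that little else changed. Genes 2-fold higher in the caudal group made up 0.398%, 0.0808% and 1.20% of the genes compared and genes 2-fold lower 0.751%, 0.503% and 2.24%. In all 3 libraries 0 of 9288 genes were higher and 1 was lower (0.0108%). It was Tnmd, a gene of tendon cells, at 8.98 against 24.9 CPM, 5.07 against 13.3 and 5.70 against 22.8. With groups formed from unthinned counts it was 0 genes. Of the members that did not define the groups, Hoxa2 was lower at E13.5 (5.33 against 12.6 CPM) and Hoxb3 was lower at P0. The latter rests on 1 UMI against 51, a ratio of 0.159 (0.00395 to 0.926). Neither call recurred: Hoxb3 lay at 0.789 at E13.5 and 0.657 at E16.5, and Hoxa2 was under the UMI minimum at E16.5 and P0.

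In the hair follicle epithelium the member that stood out was Hoxc13. Epithelial-like cells gave 1, 91 and 635 UMIs of it, or 0.433, 6.71 (5.40 to 8.24) and 36.7 CPM (33.9 to 39.7). In dermal-like cells it gave 0, 4 and 16 UMIs, and in immune-like cells 0, 2 and 2. Endothelial-like, pericyte-like, adipocyte-like and Schwann-like cells at P0 held 2 to 5 UMIs each, and melanocyte-like cells 25 (16.1 CPM). The summed epithelial markers in these melanocyte-like cells reached 31.5% of their epithelial level, and their part in the 25 UMIs was not tested.

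At P0 Hoxc13 was at 92.9 CPM (83.9 to 102) in 338 matrix-like cells, the dividing cells at the base of the follicle, and at 80.8 (65.9 to 98.1) in 118 cells with markers of the inner root sheath or shaft. Other epithelial-like cells held 11.7 (9.85 to 13.8), which gave ratios of 7.92 (6.51 to 9.69) and 6.90 (5.29 to 8.97). By sub-cluster, the matrix-like cells stood at 101 and 81.4 CPM and cells led by Tbx1 and Lgr5 at 33.8. Cells led by Krt79 stood at 16.2, and the sub-clusters with suprabasal markers at 1.01 CPM and 0. The levels of the matrix-like and the suprabasal sub-clusters did not overlap. At E16.5 the highest level, 32.9 CPM, lay in 85 cells led by Ccer2, Lhx2 and Pthlh, which the marker lists left unnamed, while the cells with matrix or placode markers held 4.21 CPM against 7.18 in the other epithelial-like cells.

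The ratio of Hoxc13 in matrix-like cells lay between 2.85 and 14.2 under the other settings tried. In root sheath or shaft-like cells it fell to 0.692 when cells with fewer than 2500 genes were left out, which also changed the cells that the markers named.

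**Figure D5:**
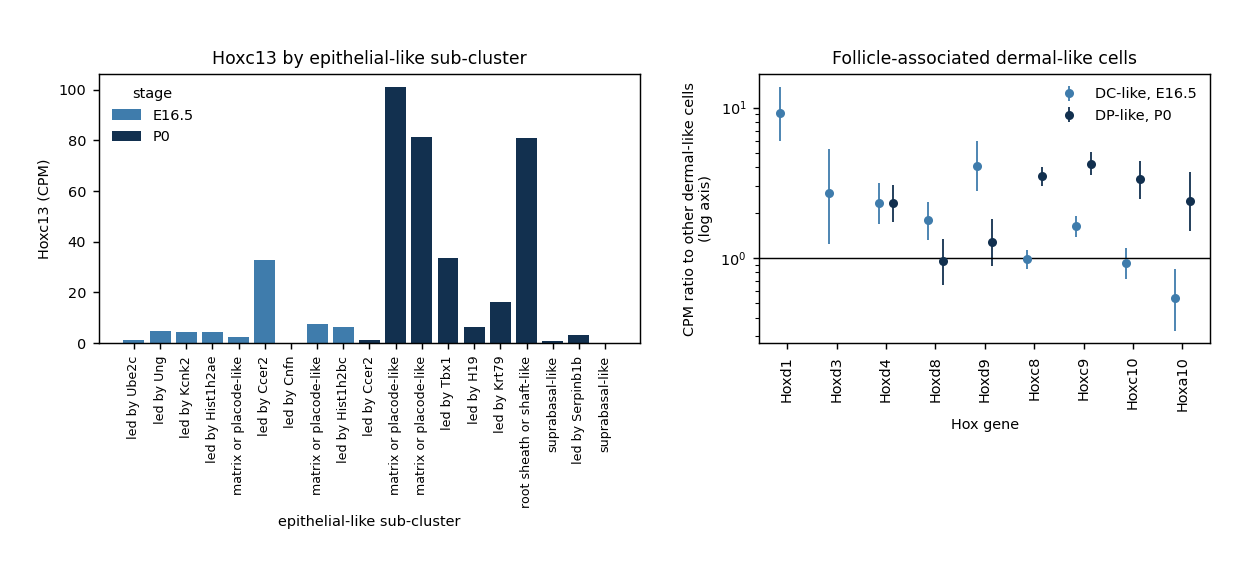
Left, level of Hoxc13 (CPM) in each epithelial-like sub-cluster of E16.5 and P0, named by class or leading gene, as bars without counting intervals. Right, ratio of the CPM in dermal condensate-like (E16.5) and dermal papilla-like cells (P0) to other dermal-like cells (logarithmic axis) for 9 members, with bars for the 95% counting interval and no point where fewer than 50 UMIs could be compared; Hoxc13 reaches 101, 81.4 and 80.8 CPM in the matrix-like and root sheath or shaft-like cells, and Hoxd1 a ratio of 9.14 in condensate-like cells.

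Other members also differed at P0. In matrix-like cells Hoxb6, Hoxc13 and Hoxd4 were higher, and Hoxa2, Hoxc4 and Hoxc5 were among the members lower, 3 and 4 of 20 members against 4.38% and 8.11% of all genes. In root sheath or shaft-like cells 5 of 19 were higher (Hoxb6, Hoxb8, Hoxc13, Hoxd4 and Hoxd8, against 6.91%) and 7 lower (among them Hoxa2, Hoxa3, Hoxa5, Hoxa7, Hoxc4 and Hoxc5, against 14.7%). Hoxb6 went from 14.9 CPM in other epithelial-like cells to 35.5 in matrix-like and 72.9 in root sheath or shaft-like cells. Its ratio to other epithelial-like cells turned to 0.964 in matrix-like cells at clustering resolution 0.5 and to 0.985 in root sheath or shaft-like cells with at least 2500 genes per cell. The members higher in matrix-like cells fell from 3 to 1 at resolution 2 or with doublets removed. Hoxa5 went from 36.5 to 21.2 and 8.71 in the same order, and Hoxd4 from 2.29 to 9.87 and 23.8. At E16.5 the matrix or placode-like cells had 0 of 23 members higher (1.86% of all genes) and 1 lower (5.55%).

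On the dermal side of the follicle, 171 cells of E16.5 and 189 cells of P0 were named from the same marker list. The list holds markers of the dermal condensate (DC), the cell cluster that induces the follicle, and of its descendant, the dermal papilla (DP). It does not tell them apart, so cells are called DC-like at E16.5 and DP-like at P0 by stage alone. The DC-like cells had 4 of 22 members higher (Hoxd1, Hoxd3, Hoxd4 and Hoxd9, against 11.6% of all genes) and Hoxb2 and Hoxb9 lower (2 of 22, against 12.3%). Hoxd1 was at 25.6 CPM (18 to 35.2) in them and at 2.80 in other dermal-like cells, a ratio of 9.14 (5.95 to 13.8) from 37 and 68 UMIs. Hoxd9 was at 24.9 against 6.05 CPM, a ratio of 4.11 (2.77 to 5.96). These calls depended on the naming: with the median of the clusters as the reference for markers, 0 members were higher and the Hoxd1 ratio was 1.26.

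The DP-like cells had 5 of 20 members higher (Hoxa10, Hoxc8, Hoxc9, Hoxc10 and Hoxd4, against 14.7% of all genes) and 1 lower (Hoxb9, against 9.08%). Hoxc8 was at 197 CPM against 56.5, a ratio of 3.49 (3.02 to 4.01), and Hoxc9 at 133 against 31.4, a ratio of 4.24 (3.54 to 5.06). Hoxc10 was at 47.9 against 14.4 and Hoxa10 at 19.5 against 8.11. Hoxd1, with 13 UMIs in DP-like and 11 in other dermal-like cells, was under the UMI minimum. The dermal-like cells of E16.5 had 138, 71.6 and 56.5 CPM of Hoxc8, Hoxc9 and Hoxc10. Each of the 3 DP-like sub-clusters exceeded the dermal-like class in Hoxc8 and Hoxc9, with 200, 102 and 255 CPM of the former and 97.1, 105 and 209 of the latter. The summed dermal markers in DC-like and DP-like cells were at 25.9% and 23.2% of the level over all dermal-like cells.

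Genes that work with Hox genes were read from lists that hold no member. Of all genes compared, 19.0%, 19.7% and 18.3% were higher in dermal-like than in epithelial-like cells and 9.73%, 11.5% and 15% lower. Of the TALE cofactors 2 of 8 were higher and 1 lower in dermal-like than in epithelial-like cells in the first library, 2 and 2 of 8 in the next, and 4 and 1 of 7 in the last. Meis1 was called each time, with 120, 46.2 and 41.6 CPM in dermal-like cells against 41.2, 10.7 and 4.80. Meis3 was called each time as well, at 27.8, 33.2 and 29.7 against 13.4, 8.11 and 4.97. Meis2, the cofactor with the highest dermal level at E13.5, was at 309, 81.2 and 41.8 CPM against 165, 53.2 and 10.1. Pbx3 was lower in dermal-like cells each time. The median ratios of the list were 1.45, 1.29 and 3.41, beside 1.04, 1.05 and 0.928 over all genes compared.

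Other transcription factors of body position, such as those that pattern the trunk and limbs, were higher in dermal-like cells in 12 of 12, 10 of 11 and 10 of 10 cases, beside 19.0%, 19.7% and 18.3% of all genes compared. Zic1 was at 140, 67.9 and 79.1 CPM in dermal-like cells against 19.1, 2.95 and 2.37 in epithelial-like cells, and En1 at 79.5, 69.7 and 66.6 against 7.80, 1.03 and 1.45. Tbx15 was at 99.9, 51.0 and 52.5 CPM and Shox2 at 23.5, 77.8 and 63.9, both under 8 in epithelial-like cells. Lmx1b was the 1 gene lower at E16.5. En1 and Tbx15 are known from the pattern of dorsal skin and coat.

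Of the noncoding transcripts of the clusters, 7, 7 and 6 could be compared, and of these 2, 2 and 1 were higher in dermal-like cells and 3, 4 and 3 lower, against 19.0%, 19.7% and 18.3% of all genes higher and 9.73%, 11.5% and 15% lower. How the counting treated transcripts on opposite strands is not given in the sources used here, so antisense transcripts and the genes beside them may share UMIs. Hotairm1 was at 3.97, 3.61 and 3.05 CPM in dermal-like cells and at 83.6, 58.5 and 27.1 in epithelial-like cells. Hoxb3os was at 8.35, 5.44 and 7.92 against 64.1, 33.7 and 25.7. Hoxd3os1 was at 14.7, 16.7 and 31.9 against 3.90, 7.74 and 4.86, and Haglr at 11.6, 4.62 and 2.66 against 2.17, 0.737 and 1.39. Hoxb5os stood at 9.19, 2.49 and 7.21 CPM against 8.67, 9.44 and 6.01.

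Of the Polycomb and Trithorax genes, whose products keep Hox genes silent or active, 0 were higher in dermal-like cells (beside 19.0%, 19.7% and 18.3% of all genes) and 3 of 18, 4 of 19 and 3 of 19 were lower, beside 9.73%, 11.5% and 15% of all genes. Ezh2 was at 131, 92.5 and 48.4 CPM in dermal-like and 117, 108 and 82.2 in epithelial-like cells, and Kdm6b at 94.9, 79.9 and 82.9 against 96.6, 55.3 and 72.3. Rnf2 stood at 92.5, 48.2 and 53.1 CPM and Kmt2a at 49.3, 51.6 and 28.8 in dermal-like cells. The list of inducers of Hox expression also holds Cyp26b1, whose enzyme breaks down retinoic acid and so does the opposite of an inducer. Of this list, 2 of 4, 2 of 4 and 1 of 3 were higher in dermal-like cells and 0 lower. Cyp26b1 was among those higher at E16.5 and was the only one at P0. It was at 1.15, 46.9 and 142 CPM in dermal-like cells and at 0, 4.28 and 6.82 in epithelial-like cells. Rarg was at 48.8, 56.3 and 76.6 CPM, Rara at 41.3, 43.1 and 46.8, and Rarb at 15.4, 1.59 and 1.17 in dermal-like cells.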

How the data were processed

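Per the labels and the study's methods, single cells of back skin were run on 10x v2 chemistry, reads were aligned to the mouse reference that 10x Genomics builds from mm10 and UMIs counted with Cell Ranger 2.2.0, and cells with at least 1750 genes were kept. The authors deposited the natural log of 1 plus UMIs per 10000 of the cell. Undoing this scaling gave whole UMI counts for all deposited values (tolerance 0.001), 166173741 UMIs in 16235 cells. The gene set in that reference was not used here, and gene positions are from GENCODE vM21.

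Each library was clustered alone (scanpy 1.11.5, leidenalg 0.10.2, Python 3.11.15; 2000 variable genes, 30 components, 15 neighbours, resolution 1). A class needed 3 markers at a log2 difference of at least 1 over the 25th percentile of the clusters, with 10 CPM added. The rules for sub-classes (0.5 of the markers) and mixed clusters were chosen after seeing the data, as were the alternatives that undo them. The Hox genes, gene lists and markers were chosen with earlier results of these data known. UMIs were summed per class and intervals were exact Poisson, exact binomial (Clopper-Pearson for shares) or exact conditional binomial (ratios). No test was run, since each stage had 1 library. Scrublet marked 0, 77 and 101 doublets (0 at E13.5 means it did not work there), which were kept. Alternatives changed the clustering, naming, filters and call limits. The comparison was tested on simulated data. 1 member and 1 list gene are not reported here. Classes are given for members with at least 50 UMIs in those compared, Hoxc13 and Hoxd4 in each class, for each list the 4 genes with the highest dermal level, and for caudal cells up to 10 other genes called in all 3 libraries. Hotairm1, Pbx3 and Lmx1b were named after their values were seen.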

Additional observations from a re-analysis of the deposited data

Results flagged for a closer look

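Of the ratios compared between stages, 4 sets had counting intervals on opposite sides of 1 in different libraries. The differences between the libraries were not tested. Hoxc5 in dermal-like over epithelial-like cells was 1.95 (1.62 to 2.36) at E13.5, 0.717 (0.583 to 0.883) at E16.5 and 2.63 (2.00 to 3.49) at P0. In matrix-like or placode-like over other epithelial-like cells, Hoxc5 was 1.92 (1.32 to 2.74) at E16.5 and 0.439 (0.201 to 0.862) at P0, and Hoxc4 was 1.44 (1.10 to 1.88) and 0.398 (0.253 to 0.602). Hoxa10 in DC-like over other dermal-like cells was 0.537 (0.326 to 0.837) at E16.5, and in DP-like over other dermal-like cells it was 2.40 (1.5 to 3.70) at P0.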

How the results depend on the processing

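No paired analysis was possible because each stage had 1 library. With 1 library per stage no replicate could be left out. Of 123 calls of members, 83 to 123 were made again under each of 13 settings, and at most 3 under any of them took the other direction. The 123 belong to the ratio of 1.5, which keeps every 2-fold call by design. The lowest counts, 83 and 84, belong to classes from single cells and to 200 UMIs. Under these, 32 and 39 calls could not be compared.

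The summed Hox level of dermal-like cells went at E13.5 from 918 to 897 (resolution 2), 890 (Hox genes allowed among the variable genes), 937 (classes from single cells) and 939 CPM (clusters named by markers alone). At E16.5 it went from 588 to 577 (resolution 0.5 and single cells), 601 (resolution 2), 576 (Hox genes allowed), 608 (2500 genes per cell), 607 (doublets removed) and 605 (equal weight of cells), and at P0 from 471 to 451, 510, 444 and 458 with Hox genes allowed, 2500 genes, single cells and markers alone. Shares of cells with a Hox UMI were 99.0%, 98.6% and 90.5% without thinning, and the caudal comparison gave 0 genes.

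Members higher in dermal-like than epithelial-like cells at E13.5 were 6 with mixed clusters kept. Members lower there were 5 at E13.5 and 8 at E16.5 with a minimum of 200 UMIs, which compares fewer genes. Between dermal stages, members higher at E16.5 were 2 instead of 1 with resolution 0.5, Hox genes allowed, single cells or markers alone, and 0 with 200 UMIs. At P0, 3 instead of 6 were higher with 2500 genes or 200 UMIs, and 4 instead of 7 lower with 200 UMIs.

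In matrix or placode-like cells of E16.5, members higher were 1 (resolution 0.5 or Hox genes allowed), 2 (1000 variable genes or median reference) and 3 (ratio of 1.5), and members lower were 2 (doublets removed or equal weight), 0 (200 UMIs) and 4 (ratio of 1.5). At P0 members higher were 1 (resolution 2 or doublets removed), 5 (1000 variable genes) and 7 (ratio of 1.5), and members lower 2 (either resolution, doublets removed or 200 UMIs) and 1 (2500 genes). In root sheath or shaft-like cells members higher were 2 (resolution 2 or 2500 genes) and 3 (1000 variable genes or 200 UMIs), and members lower 4 (2500 genes) and 3 (200 UMIs).

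In DC-like cells members higher were 2 (resolution 0.5 or doublets removed), 0 (median reference) and 1 (200 UMIs), and members lower 4 (ratio of 1.5 or markers alone). In DP-like cells members higher were 8 (Hox genes allowed or ratio of 1.5), and members lower 2 (the same settings) and 0 (2500 genes or 200 UMIs).

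The ratios that turned were those of Hoxc13 (0.692), Hoxa3 (2.72) and Hoxb6 (0.985) in root sheath or shaft-like cells with 2500 genes per cell, of Hoxa3 in the same cells with 1000 variable genes (1.15), of Hoxb6 in matrix-like cells at resolution 0.5 (0.964), of Hoxb9 in DP-like cells with Hox genes allowed (1.30) and of Hoxd3 in DC-like cells with the median reference (0.682). The cause of these shifts was not tested. Single-cell naming gave no follicle sub-classes, so those comparisons were not run under it.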

Other observations

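At E13.5, 566 cells could not be named, and their summed dermal markers were at 95.8% of the dermal level. Their clusters were led by Tnmd and Scx, genes of tendon cells, by C1qtnf3, Ren1 and Hmx1, and by Sox2, Msx3 and Hes5, genes of neural progenitors. In that order of clusters, the dermal markers stood at 111%, 98.8% and 10.9% of the dermal level. The last cluster held 84 cells. The Hox values that follow are sums over all 566 cells and so pool unlike clusters. Hox genes summed to 1352 CPM (1320 to 1384) in these cells, with a mean paralogue number of 5.55. HoxB held 33.6% of these UMIs and HoxC 35.8%. Hoxa5 was at 85.1 CPM, Hoxb4 at 95.9 and Hoxd4 at 86.9, against 8.56, 29.0 and 26.4 in dermal-like cells.

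In muscle-like cells of E13.5, Hoxa5 was at 22.2 CPM and Hoxa11 at 3.48 (2.16 to 5.32, 21 of the 31 Hoxa11 UMIs of the library). Melanocyte-like cells had 120 CPM (94.8 to 149) of Hox transcripts at E16.5 and 205 (183 to 229) at P0, and adipocyte-like cells 207 (175 to 243) at P0.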
